A study of Homo sapiens with 24 samples.

Results

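The integrated stress response genes described here are 10 genes given as a list of 17 Ensembl transcript IDs with their symbols. The rule names the genes and uses no measured value, though the list was drawn up with earlier results of these data known. Of the 17 transcripts, 9 were in both tables, out of 11252 transcripts listed for the LM2 experiment and 10767 for the knockdown experiment, and they stand for 9 of the 10 genes: ATF4 (ENST00000337304), ATF5 (ENST00000423777), DDIT3 (ENST00000552740), PPP1R15A (ENST00000200453), PPP1R15B (ENST00000367188), ASNS (ENST00000175506), SESN2 (ENST00000253063), XPOT (ENST00000332707) and HSPA5 (ENST00000324460). Absent from both tables were ATF4 ENST00000396680 and ENST00000404241, DDIT3 ENST00000346473, ENST00000547303 and ENST00000551116, ASNS ENST00000394308 and ENST00000394309, and TRIB3 ENST00000217233, the sole listed transcript of TRIB3. The tables pair no ID with a gene name, so each symbol rests on that list, and how the authors assigned reads that fit several transcripts or near-identical gene copies is not given in the sources used here.

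Ribosome footprints (Ribo-seq) and RNA were sequenced with 3 replicates per group and assay in 4 groups of MDA-MB-231, a human breast cancer cell line. The first comparison sets LM2 cells, whose label gives a high capacity to metastasize to lung, against parental cells labelled poorly metastatic. Cells labelled sgHNRNPC, with the variation given as an HNRNPC knockdown, were set against sgCTRL cells with a control guide, both labelled as poorly metastatic. HNRNPC is a nuclear RNA-binding protein that coats uridine-rich stretches of pre-mRNA. All groups were grown in high glucose DMEM with serum to the same stated confluence, and the labels name no stress agent, no clone and no number of guides. Whether the replicates came from separate cultures is not in the labels, so each p-value refers to the spread between these libraries, part of which may be technical. HNRNPC itself and the markers of the line were not analysed here, because their transcripts could not be named.

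In the integrated stress response, kinases that sense amino acid shortage, unfolded protein in the endoplasmic reticulum (ER), double-stranded RNA or heme deficiency phosphorylate the initiation factor eIF2α. General initiation then slows, while mRNAs with upstream open reading frames, ATF4 above all, are translated better. ATF4 protein turns on genes of amino acid supply, tRNA handling and stress signalling, DDIT3 (CHOP) among them, and PPP1R15A brings a phosphatase to eIF2α and so ends the response.

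Promoter sequence was examined because the 9 transcripts moved together in the knockdown comparison. RefSeq windows on GRCh38.p14, from 250 bases before to 50 bases after a gene's start, were at hand for all 10 genes (17 windows) and were searched on both strands for 3 motifs. The C/EBP-ATF composite element, searched as TGATGNAA, is bound by ATF4 with a C/EBP partner, and 3.62% of 35116 windows hold it. The ER stress element, searched as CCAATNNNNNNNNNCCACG, is bound by ATF6 with NF-Y, and 0.0769% hold it. The cAMP response element, searched as TGACGTCA, is bound by CREB and ATF family factors, and 1.85% hold it. None of the searched motifs overlapped another in these windows. The 4 matches are shown 5′ to 3′ on the strand of the gene, with the motif in capitals, since they are the only matches in the members' windows.
ASNS, composite element, chr7:97872449-97872496, minus strand: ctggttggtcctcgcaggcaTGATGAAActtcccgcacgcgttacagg
PPP1R15B, composite element, chr1:204412017-204412064, minus strand: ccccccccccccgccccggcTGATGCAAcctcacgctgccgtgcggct
HSPA5, ER stress element, chr9:125241371-125241429, minus strand: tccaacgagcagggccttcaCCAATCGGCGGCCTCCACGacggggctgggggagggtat
PPP1R15A, cAMP response element, chr19:48872343-48872390, plus strand: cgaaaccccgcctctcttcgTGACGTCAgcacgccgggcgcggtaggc

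The motifs began 227 bases before the start of PPP1R15B, 66 before that of HSPA5 and 58 before that of PPP1R15A. For ASNS the motif began 68 bases before a RefSeq start at 97872408, which lies inside the span annotated for the gene and is not its outermost start. A match is a run of letters and not a measured binding site, and the windows of the other 6 genes hold none of these letters. Of the pair with the composite element, the RNA of ASNS and PPP1R15B was 3.70-fold and 1.20-fold that of control guide cells in the knockdown cells, as described next. Whether the element bears on either change was not tested.

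In the knockdown cells the RNA of all 9 transcripts was higher than in control guide cells and footprints were higher for 8. RNA rose most for DDIT3, ASNS, ATF5 and SESN2, by 3.10-fold to 4.86-fold between means. The median log2 change over the 9 was 1.30 for RNA and 1.35 for footprints, against -0.10 and -0.04 over all 8283 transcripts tested. A rise in RNA passed the test (limma, adjusted p under 0.05 over all transcripts tested) for 9 of 9 members, where 28.0% of all transcripts did, and a rise in footprints for 8 of 9, where 15.5% did. A minimum mean of 10 in both assays was required. ATF5 and DDIT3 met it in footprints only through the knockdown cells. The minimum therefore favoured a rise of theirs, in the medians as in the counts. Among the other members RNA rises ran from 0.26 (PPP1R15B) to 1.89 (ASNS) on the log2 scale. Their footprint rises ran from 0.44 (PPP1R15B, which did not pass) to 1.74 (SESN2). The counts were the same with no minimum. With the median change set to 0, the smallest RNA rise, that of PPP1R15B, was 0.37 on the log2 scale in place of 0.26. RNA and footprint values are normalized reads per transcript and not per length, so levels are compared within a gene and within a table.

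**Figure D1:**
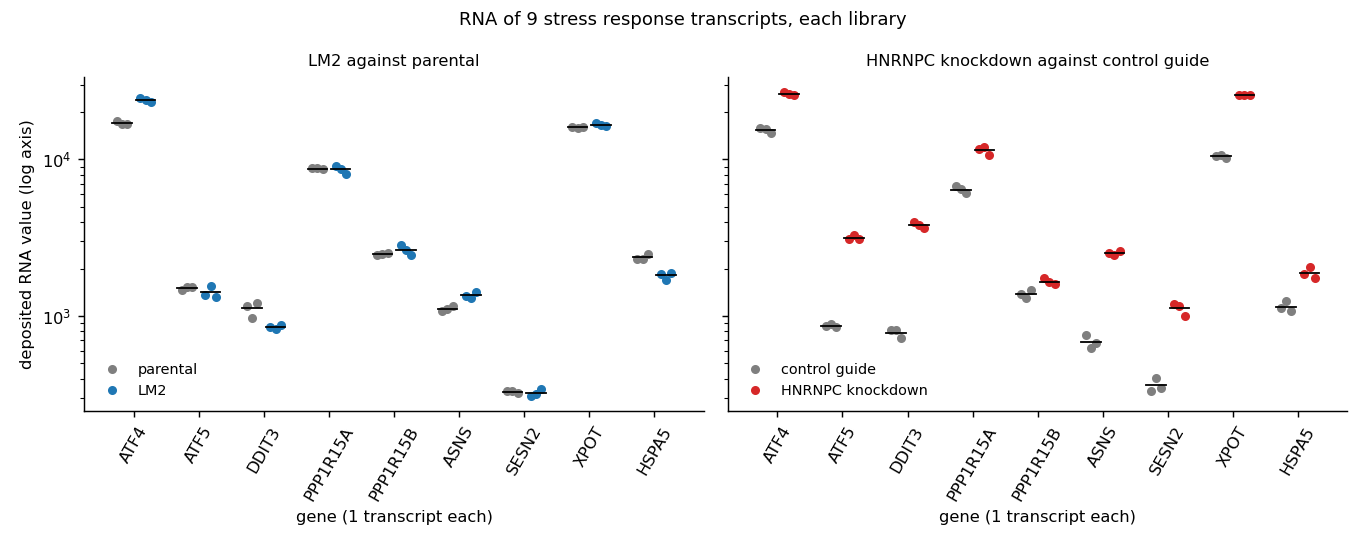
RNA value of each library (points, log axis) and group mean (black bars) for the 9 transcripts, with LM2 and parental cells on the left and HNRNPC knockdown and control guide cells on the right, 3 libraries per group. On the right the 3 knockdown libraries lie above the 3 control guide libraries for every transcript shown. How many of all tested transcripts separate this way was not counted.

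ATF4 (chromosome 22, 39520559 to 39522686, GRCh38) is the transcription factor at the centre of the response. Its RNA value was 26759, 26162 and 25845 in the 3 knockdown libraries and 15933, 15556 and 14833 in the control guide libraries. Its footprints were 115, 112 and 96.7 against 44.0, 54.0 and 56.1. Groups did not overlap in either assay, with a log2 rise of 0.77 ± 0.04 (SE) in RNA (limma, adjusted p = 2.56e-15) and 1.06 ± 0.14 in footprints (2.72e-07).

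DDIT3 (chromosome 12, 57516588 to 57520517) encodes CHOP, a C/EBP family factor known for promoting cell death under lasting stress. It had the 11th largest RNA rise of the 8283 transcripts tested and the 6th largest footprint rise. It entered that set only through its footprints in knockdown cells, so these ranks are a description. The RNA value was 3970, 3831 and 3666 in knockdown cells and 821, 813 and 725 in control guide cells. Footprints were 35.0, 41.2 and 39.8 against 8.60, 2.29 and 4.01, so the lowest knockdown library lay above the highest control library. The log2 rise was 2.28 ± 0.06 in RNA (adjusted p = 4.25e-20) and 2.87 ± 0.35 in footprints (1e-07). The footprint rise ranged from 2.18 to 3.28 over the alternatives, the lowest with a pseudocount of 5, because the control values are low.

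ATF5 (chromosome 19, 49928906 to 49933935) is a factor related to ATF4, whose mRNA also carries upstream reading frames. Its RNA value was 3083, 3291 and 3118 in knockdown cells and 871, 887 and 856 in control guide cells, a log2 rise of 1.86 ± 0.06 (adjusted p = 7.02e-19). Footprints of 19.3, 18.1 and 20.1 stood above 3.68, 6.39 and 7.30, a rise of 1.61 ± 0.36 (0.000692). The knockdown libraries were close to each other in both assays, and the spread in footprints came from the control guide libraries.

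The phosphatase subunits differed in size of change. PPP1R15A (GADD34; chromosome 19, 48872421 to 48876058), the stress-induced subunit, had RNA values of 11697, 12060 and 10726 in knockdown cells and 6729, 6469 and 6063 in control guide cells. Its footprints were 94.1, 84.0 and 102 against 48.2, 32.9 and 29.0, with control guide replicate 1 the nearest to the knockdown cells. Both readouts rose, by 0.84 ± 0.05 (adjusted p = 2.4e-14) and 1.35 ± 0.16 (1.05e-07).

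PPP1R15B (CReP; chromosome 1, 204395826 to 204411817), the constitutive subunit, had the smallest RNA rise of the 9, 0.26 ± 0.07 (adjusted p = 0.000888), with values of 1739, 1646 and 1597 against 1380.0, 1305 and 1470.2. Footprints of 44.3, 35.8 and 26.7 overlapped with 23.6, 28.9 and 24.4 and did not pass (0.44 ± 0.22, adjusted p = 0.121, 95% interval -0.01 to 0.88). Without knockdown replicate 3, the library with the value of 26.7, the footprint change was 0.62 and passed (adjusted p = 0.0346).

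Among the target genes, ASNS (chromosome 7, 97851677 to 97928441), asparagine synthetase, had RNA values of 2519, 2473 and 2602 in knockdown cells and 758, 627 and 670 in control guide cells. Its footprints were 248, 246 and 271 against 86.3, 97.4 and 72.8. The knockdown libraries were all above the control guide libraries, with a log2 rise of 1.89 ± 0.07 in RNA (adjusted p = 1.8e-17) and 1.57 ± 0.11 in footprints (1.86e-12).

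SESN2 (chromosome 1, 28259518 to 28282491), a leucine-binding inhibitor of mTORC1 signalling, had RNA values of 1203, 1165 and 999.7 against 333, 404 and 349. Footprints were 48.1, 60.1 and 51.5 against 18.4, 10.97 and 17.3. It rose by 1.63 ± 0.10 in RNA (adjusted p = 1.82e-13) and 1.74 ± 0.23 in footprints (3.7e-07), again with no overlap between groups.

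XPOT (chromosome 12, 64404392 to 64451125), the export receptor that carries tRNA out of the nucleus, had RNA values of 25799, 25880.3 and 25678 in knockdown cells and 10438, 10722 and 10222 in control guide cells. Footprints were 371, 358 and 332 against 207, 215 and 200.5. The RNA rise of 1.30 ± 0.04 (adjusted p = 5.08e-20) was larger than the footprint rise of 0.77 ± 0.10 (2.8e-07), and the test of that difference is given with the efficiencies.

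HSPA5 (BiP; chromosome 9, 125234853 to 125241343) is the main chaperone of the ER and a marker of the unfolded protein response. RNA values were 1845, 2060.3 and 1763 in knockdown cells and 1125, 1247 and 1077 in control guide cells, a log2 rise of 0.72 ± 0.07 (adjusted p = 1.97e-09). Footprints were 116, 122 and 93.6 against 26.2, 65.1 and 51.3, a rise of 1.29 ± 0.19 (3.56e-06). Control guide replicate 1 was the lowest in footprints but not in RNA, and without it the footprint rise was 0.91 and still passed (adjusted p = 9.55e-06), while its efficiency difference, which passed in neither fit, went from 0.57 to 0.21.

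**Figure D2:**
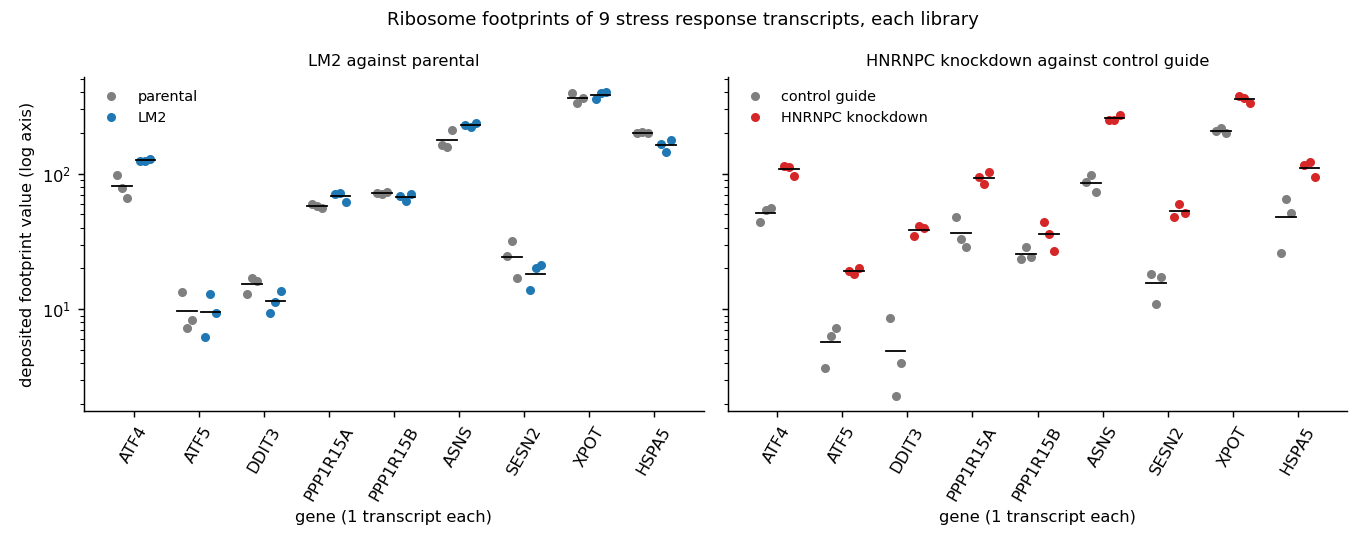
Footprint value of each library (points, log axis) and group mean (black bars) for the same transcripts and groups. On the right the knockdown libraries lie above the control guide libraries for all but PPP1R15B. On the left every LM2 library is higher for ATF4, ASNS and PPP1R15A and lower for HSPA5 and PPP1R15B. The LM2 differences of PPP1R15A and PPP1R15B did not pass the test. The share of all tested transcripts with such a separation was not counted.

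In LM2 cells the same transcripts went different ways. RNA and footprints of ATF4 and ASNS rose, those of HSPA5 fell, and the RNA of DDIT3 fell. RNA rose for 2 and fell for 2 of the 8 members tested, where 22.9% of all 9342 transcripts tested rose and 30.8% fell. Footprints rose for 2 and fell for 1, against 9.25% and 14.5%. The median log2 change over the 8 was 0.02 for RNA and -0.01 for footprints, against -0.03 and 0.00 over all transcripts. ATF5 missed the minimum mean of 10 in footprints and was not tested here.

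ATF4 RNA was 24766, 23969 and 23347 in the LM2 libraries and 17672, 16699 and 16840 in the parental libraries. Footprints were 124, 124 and 128 against 98.2, 78.4 and 66.4, so that LM2 cells were above parental cells in both assays and the parental libraries were more spread. The log2 rise was 0.49 ± 0.03 in RNA (adjusted p = 5.8e-11) and 0.64 ± 0.12 in footprints (0.000202). ASNS RNA of 1343, 1308 and 1436 also stood above 1072, 1111 and 1164, and its footprints of 229, 219 and 238 above 161, 157 and 211. Its rises were 0.29 ± 0.07 (adjusted p = 0.00205) and 0.38 ± 0.10 (0.00461), and without a variance trend the footprint rise did not pass (adjusted p = 0.108).

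HSPA5 was lower in LM2 cells, with RNA of 1866, 1704 and 1896 against 2329.5, 2309 and 2505 and footprints of 164, 145 and 176 against 199, 203 and 199. It fell by 0.39 ± 0.06 in RNA (adjusted p = 1.49e-05) and by 0.31 ± 0.10 in footprints (0.016). The footprint call was lost without LM2 replicate 2 (adjusted p = 0.144), after quantile normalization (0.0761) and without a variance trend (0.104). DDIT3 RNA of 856, 825 and 873 lay below 1168, 980.2 and 1217, a fall by 0.39 ± 0.09 (adjusted p = 0.000748). Its footprints of 9.35, 11.4 and 13.6 overlapped with 12.9, 16.9 and 16.3 and did not pass (-0.40 ± 0.31, adjusted p = 0.376).

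For the remaining members no LM2 difference passed as deposited. PPP1R15A RNA averaged 8627 ± 476 in the LM2 libraries and 8735 ± 105 in the parental ones (SD, n = 3), and its footprints 68.1 ± 5.85 and 57.8 ± 1.99, a log2 difference of 0.23 with a 95% interval of -0.06 to 0.52. PPP1R15B RNA averaged 2641 ± 205 and 2494 ± 31.4, and its footprints 67.3 ± 3.66 and 72.2 ± 1.46. SESN2 RNA averaged 324 ± 17.2 and 331 ± 7.41, with footprints of 18.3 ± 3.90 and 24.4 ± 7.36, whose log2 difference of -0.37 had an interval of -0.92 to 0.17. XPOT RNA averaged 16626 ± 399 and 15992 ± 111, a log2 difference of 0.06 ± 0.03 (adjusted p = 0.141) that passed at 0.09 after TMM scaling (0.0231), 0.12 after quantile normalization (0.00421) and 0.08 with the median change set to 0 (0.0327). XPOT footprints averaged 382 ± 22.8 and 361 ± 30.5, a log2 difference of 0.08 ± 0.09 (adjusted p = 0.511) that was 0.29 and passed after quantile normalization (0.00878). ATF5 RNA averaged 1419 ± 118 and 1512 ± 44.8, and its footprints 9.49 ± 3.35 and 9.64 ± 3.30.

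Set side by side, each within its own table, the experiments share no library. ATF4 RNA was 1.41-fold in LM2 cells over parental cells and 1.70-fold in knockdown cells over control guide cells, and ASNS RNA 1.22-fold and 3.70-fold. DDIT3 RNA was 0.759-fold and 4.86-fold, and HSPA5 RNA 0.765-fold and 1.64-fold. SESN2 RNA was 0.980-fold and 3.10-fold, and XPOT RNA 1.04-fold and 2.465-fold. A difference between the experiments was not tested, since the tables were normalized separately.

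**Figure D3:**
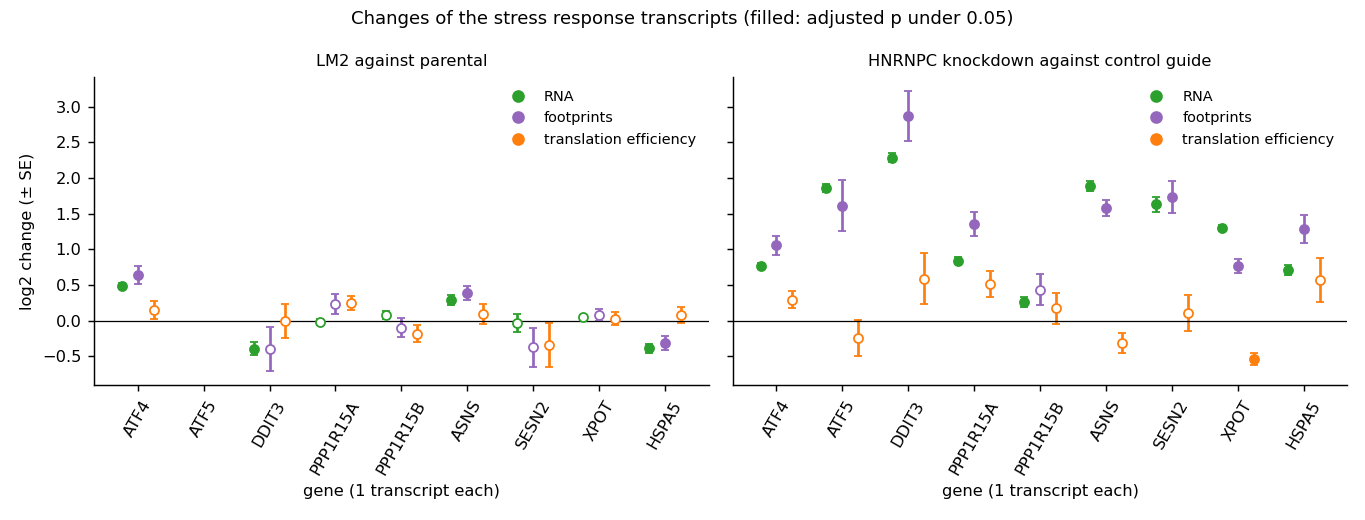
Log2 change ± SE (limma) of RNA, footprints and translation efficiency for each transcript, LM2 against parental on the left and HNRNPC knockdown against control guide on the right, with filled points where the adjusted p was under 0.05. RNA and footprint points lie above 0 for all 9 transcripts on the right, and efficiency points lie on both sides of 0, with XPOT the only filled one.

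Translation efficiency, the footprint change less the RNA change, passed the test for 1 of the 9 transcripts in knockdown cells and for 0 of 8 in LM2 cells. XPOT fell in knockdown cells by 0.54 ± 0.09 on the log2 scale (limma, adjusted p = 0.00189), with 14.4, 13.8 and 12.9 footprints per 1000 RNA in knockdown cells and 19.8, 20.1 and 19.6 in control guide cells. Of all transcripts 1.74% fell and 3.72% rose in efficiency in this comparison. In LM2 cells 1.63% of all transcripts (152) passed in either direction, and 1288 of 9342 had an unadjusted p under 0.05. That number depended on the fit. It was 43 with the replicate number as a block, 18 without a variance trend and 25 to 310 when a replicate was left out. It was 0 when footprints and RNA were paired by replicate number as a lysate block. With that lysate block XPOT no longer passed in knockdown cells (adjusted p = 0.112) at the same change. The main efficiency fit uses 1 spread per transcript for both assays. In knockdown cells its SE for XPOT was 0.087, below the 0.098 of the footprint change alone. The same held for ATF4, ATF5 and PPP1R15B, and the other members had a larger SE for efficiency. Efficiency SEs, intervals and p-values can therefore be too small where footprints vary more than RNA.

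The other efficiency differences in knockdown cells were 0.59 ± 0.36 for DDIT3, 0.57 ± 0.31 for HSPA5, 0.51 ± 0.19 for PPP1R15A, 0.29 ± 0.12 for ATF4, 0.17 ± 0.21 for PPP1R15B, 0.11 ± 0.26 for SESN2, -0.25 ± 0.25 for ATF5 and -0.31 ± 0.14 for ASNS, with adjusted p of 0.119 to 0.851. The median over all transcripts was 0.09. The 95% intervals were wide, 0.12 to 0.91 for PPP1R15A, 0.04 to 0.55 for ATF4 and -0.17 to 1.35 for DDIT3, and equal efficiency was not shown for any of them. With a pseudocount of 5, ATF5 fell by 0.68 and passed (adjusted p = 0.0354). Control guide replicate 1 had the highest footprint values of that group for PPP1R15A (48.2) and DDIT3 (8.60), and without it their efficiency rises of 0.69 (adjusted p = 0.0151) and 0.97 (0.046) passed, so that 3 members passed in place of 1. The share of all transcripts that passed in that fit is not given here, so it cannot be set beside this count. The DDIT3 difference was 0.21 without control guide replicate 2 (adjusted p = 0.765) and turned to -0.10 with a pseudocount of 5 (0.841). Its 95% interval also includes 0, so its direction is not settled. The SESN2 difference also turned, to -0.10 with a pseudocount of 5 and -0.19 without control guide replicate 2. A pseudocount of 5 is near the control guide footprint means of DDIT3 (4.97) and ATF5 (5.79), and it lowers a rise in such low values by arithmetic. With it the DDIT3 footprint rise was 2.18 in place of 2.87, and the RNA rise stayed at 2.28. Centring moved these values, since with the median efficiency change set to 0 the ATF4 difference was 0.21 and that of PPP1R15A was 0.43.

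In LM2 cells the efficiency difference was 0.25 ± 0.10 for PPP1R15A, with 7.82, 8.30 and 7.57 footprints per 1000 RNA above 6.78, 6.58 and 6.48 in parental cells, and it did not pass (adjusted p = 0.272). ATF4 differed by 0.15 ± 0.13 (adjusted p = 0.678), with 5.01, 5.18 and 5.46 footprints per 1000 RNA inside the range of 5.56, 4.70 and 3.94 in parental cells. The remaining 6 differences were between -0.34 for SESN2 and 0.10 for ASNS. These values divide libraries of the same replicate number, though the numbers were not shown to mark a shared lysate.

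**Figure D4:**
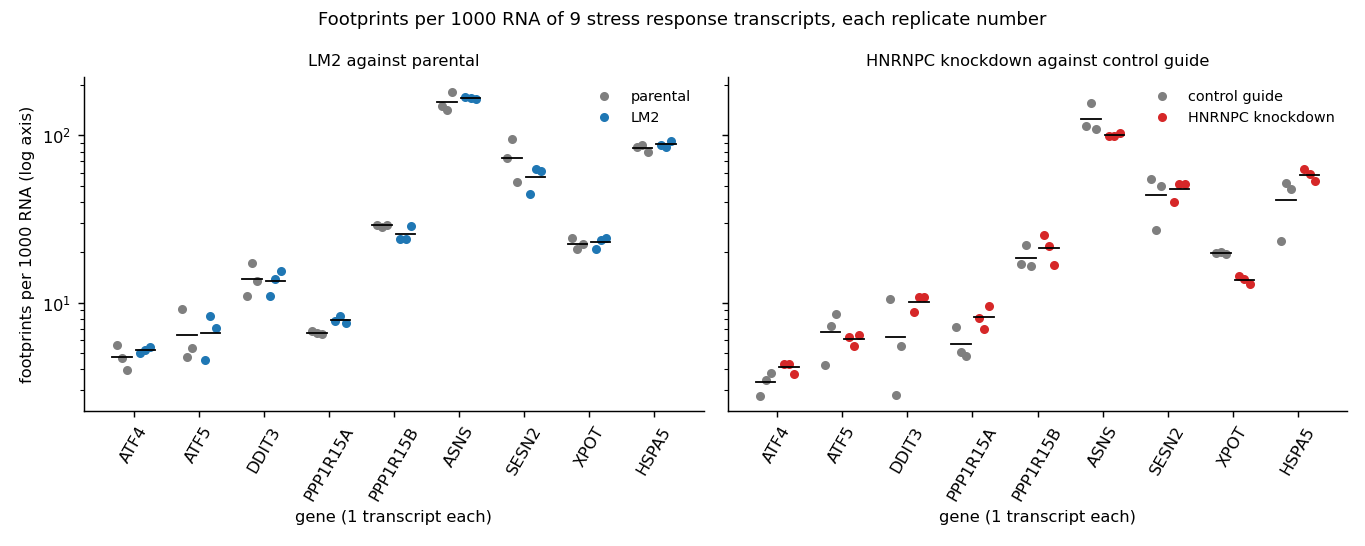
Footprints per 1000 RNA for each transcript and replicate number (points, log axis) and group mean (black bars), LM2 and parental cells on the left, HNRNPC knockdown and control guide cells on the right. ATF4, ATF5, DDIT3 and PPP1R15A sit lowest and ASNS highest in all 4 groups.

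The members differed widely in how many footprints they had per RNA. ATF4, ATF5, DDIT3 and PPP1R15A were the lowest and ASNS the highest in all 4 groups. Other positions moved, that of HSPA5 from 85.8% of transcripts below it in parental cells to 58.1% in control guide cells. From the ratio of group means, ATF4 had 4.75 footprints per 1000 RNA in parental, 5.21 in LM2, 3.33 in control guide and 4.11 in knockdown cells, where the median transcript had 42.5, 43.6, 35.7 and 37.8. From 0.338% to 0.578% of tested transcripts lay below ATF4. ATF5 had 6.38, 6.69, 6.64 and 6.05 in the same order, with 0.985% to 1.96% of transcripts below it. The tested transcripts are those with a mean of at least 10 in both assays, which ATF5 missed in the LM2 experiment. A minimum in footprints can leave out transcripts with low ratios, so low shares can be too small. PPP1R15A had 6.61, 7.90, 5.72 and 8.13, with 1.11% to 2.60% below. DDIT3 had 13.7, 13.4, 6.32 and 10.1, with 1.77% to 7.21% below. These 4 mRNAs are known for upstream open reading frames that limit translation of the main frame.

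PPP1R15B, whose mRNA also has upstream reading frames, was less far down, at 29.0, 25.5, 18.5 and 21.4 footprints per 1000 RNA with 19.0% to 30.1% of transcripts below. XPOT was at 22.6, 23.0, 19.8 and 13.7, and its position went from 21.4% of transcripts below in control guide cells to 8.55% in knockdown cells. ASNS was near the top, at 158, 168, 125 and 101, with 94.6% to 98.3% below. HSPA5 had 84.1, 88.8, 41.3 and 58.4, and SESN2 73.9, 56.6, 42.9 and 47.4, with 58.1% to 86.5% and 60.1% to 80.3% of transcripts below. A ratio compares between genes only if both assays were counted over the same stretch of the transcript, and which stretch was counted, upstream reading frames included, is not given in the sources used here. The order is therefore a description, with no test.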

How the data were processed

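RNA and ribosome footprints were measured in 24 libraries, 3 per group and assay. The authors deposited 2 tables of normalized read signal per Ensembl transcript, with 6 RNA and 6 footprint columns each, per the file headers. The submitters' processing notes name cutadapt 2.3, UMI-tools, Bowtie2 2.3.5 and SAMtools with hg38. No annotation, counting rule or scaling was given in the sources used here. Every RNA value was a whole multiple of 1 step per library (within 0.05 of a step), and the listed transcripts summed to 26810212 to 52584688 steps in LM2 and parental libraries and 23344230 to 28334050 in knockdown and control guide libraries. The lowest value was 4 steps, so whether a step is 1 read is not settled, and these sums are not full library depths. Footprint values had no such step. Depth in reads is therefore unknown, and no count model was run. Footprint sums were 1023095 to 1134509 and 669584 to 753066. Columns headed MDA were taken for the parental libraries with that replicate number, since the columns of the other groups carry their own group names.

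Values were tested as log2(value + 1), which understates changes of low values, for transcripts with a mean of at least 10 in each assay. The test was limma 3.58.1 (R 4.3.3, variance trend), on 6 libraries for RNA or footprints and on 12 for efficiency, where the assay-by-group interaction was tested. The efficiency fit estimated 1 spread per transcript over both assays. Two-sided p-values were Benjamini-Hochberg adjusted over every transcript tested in a table, and an adjusted p under 0.05 was called. The tests were checked on simulated data with independent noise in each library and changes added to footprints only. Such data cannot show how pairing of footprints with RNA would affect the efficiency calls.

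Every listed transcript in the tables is named. The members and lists were chosen with earlier results of these data known. Of 11396 transcript IDs, 0 matched the gene tables used here, so other genes of the pathway were not analysed here. Alternatives were other pseudocounts, minimums and scalings (TMM by an own unweighted implementation), a replicate block, a lysate block, no variance trend and leaving out each replicate.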

Additional observations from a re-analysis of the deposited data

How the results depend on the processing

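All alternatives were planned. Over 51 results for single transcripts and 764 alternatives of them, 736 kept direction and side of the threshold, 5 lost the call, 8 gained one and 15 changed sign, of which 0 passed the threshold in either fit. In LM2 cells, PPP1R15A RNA (-0.02) became 0.0112 with TMM scaling, 0.0777 with quantile normalization and 0.0065 with the median change set to 0, and ran from -0.0558 to 0.0236 when a replicate was left out. SESN2 RNA (-0.03) became 0.0004 with quantile normalization and ran from -0.0723 to 0.002. LM2 efficiency of DDIT3 (-0.0088) became 0.0791 with a pseudocount of 5 and ran from -0.1546 to 0.1541 when a replicate was left out, and that of XPOT (0.03) became -0.0123 with the median change set to 0 and ran from -0.0267 to 0.098. Knockdown efficiency of DDIT3 (0.59) became -0.0972 and that of SESN2 (0.11) -0.1009 with a pseudocount of 5, and SESN2 ran from -0.19 to 0.2948 when a replicate was left out. The losses and gains concern XPOT, HSPA5 and ASNS in LM2 cells and PPP1R15B footprints and the efficiency of XPOT, DDIT3, PPP1R15A and ATF5 in knockdown cells. The 9 members called for RNA in knockdown cells became 5 with a minimum mean of 50, as did the 8 called for footprints, because 5 were then tested. In LM2 cells the 3 members called for footprints became 1 without a variance trend, and leaving out a replicate gave 2 to 3. Calls over all transcripts fell too, from 2223 to 1173 without a variance trend and to between 1516 and 2057 with a replicate left out. The cause was not tested. The 1 member called for efficiency in knockdown cells became 2 with a pseudocount of 5, where ATF5 fell by 0.68 (adjusted p = 0.0354), 0 with the lysate block, and 1 to 3 when a replicate was left out. The share of all transcripts called in those fits is not given here, so these counts are no result about the members. The replicate number as a block left 9, 8 and 1 members called for RNA, footprints and efficiency in knockdown cells and 4, 3 and 0 in LM2 cells, as without it. Deviations of same-numbered libraries of the compared groups correlated at -0.195 to 0.035, so the numbers were not taken as pairs. Those of footprints with RNA of the same group and number correlated at -0.006 to 0.126. Among the fits, only the lysate block used that second pairing. TMM scaling moved the median RNA change in knockdown cells from -0.10 to 0.00 and the portion of efficiency calls in the upward direction from 68.1% to 43.5%. With the median change set to 0 that portion was 37.3%. Neither changed a member's call in that comparison. Low footprint values of DDIT3 and ATF5 limit what their efficiency can show.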
